A study of Mus musculus with 12 samples.

Results

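Genes of the transforming growth factor beta (TGF-beta) family were measured in the mouse mammary carcinoma C4-HD, which grows under the progestin MPA (medroxyprogesterone acetate). The 10 genes were the ligand genes Tgfb1, Tgfb2 and Tgfb3, the activin and inhibin subunit genes Inhba and Inhbb, the receptor genes Tgfbr1, Tgfbr2 and Tgfbr3, the inhibitory SMAD gene Smad7, and Tgfbi, a gene named for its induction by TGF-beta. They were taken as all probe sets, the groups of short probes that read a transcript, that the array's platform annotation assigns to 1 of these symbols alone, which gave 25 of the 45101 probe sets on the array, and 10 of the 18193 genes it names. Tgfb2 and Tgfbi had 4 probe sets each, Tgfbr1 and Tgfbr2 had 3, Tgfb1, Inhba, Inhbb, Tgfbr3 and Smad7 had 2, and Tgfb3 had 1. Probe sets of 1 gene read the same RNA and are no replicates of each other.

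RNA from formalin-fixed, paraffin-embedded tumours was hybridised to 12 Affymetrix mouse expression arrays in 6 groups of 2. All tumours were C4-HD mammary carcinomas carried in BALB/c mice under MPA. The groups were tumours with MPA, tumours labelled no MPA and, in another label, as saline-treated for 48 h, and tumours taken after MFP for 6 h, 12 h, 24 h or 48 h (mifepristone, which blocks the progesterone receptor, given at 10 mg/kg/day), which was placed when tumours had reached 50 mm2 and the MPA pellet was removed. A comparison of MFP with MPA therefore covers the removal of MPA and the addition of MFP together, and the labels name the animals' age for no group. The labels leave it unclear whether saline-treated tumours still had MPA, since 1 protocol text calls such tumours the control, and the source name no MPA is kept for them. The labels call the arrays of a group independent without tying them to separate mice, so p-values reflect only how these arrays vary, which may be technical. The deposited values are log2 ratios in which the MPA arrays' linear mean is the reference. The series' own text names 12, 24 and 48 h of MFP and not 6 h, so the 6 h group rests on the sample labels alone. Replicate numbers 1 and 2 were given here in accession order, only name an array and pair nothing. Ratios keep differences between arrays and lose the level of a transcript, so levels of different genes cannot be compared and the presence of a cell type cannot be read from its markers.

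TGF-beta ligands and activins are secreted dimers that bring together a type II receptor, such as TGFBR2, and a type I receptor, such as TGFBR1, which then phosphorylates SMAD proteins that enter the nucleus. TGFBR3, also called betaglycan, is a co-receptor that presents TGF-beta 2 to the signalling receptors, and SMAD7 blocks the type I receptor. In the mammary gland TGF-beta restrains epithelial growth and takes part in the remodelling of the gland after lactation, and it is a main inducer of matrix genes in fibroblasts.

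Promoter sequences of the 3 ligand genes with a called probe set and of the target gene Tgfbi are shown. These genes had probe sets that were higher at 48 h than at 6 h of MFP. So had Tgfbr1, Tgfbr3 and Smad7, whose promoters are not shown. Each is the run of 250 bases before the annotated start site, 5′ to 3′ in the direction of the gene, from RefSeq (GRCm38.p6), with capitals for the motifs searched on both strands (GTCTG and CCGCCC are CAGAC and GGGCGG read on the other strand).
Tgfb1 (chr7:25686752-25687001, strand +): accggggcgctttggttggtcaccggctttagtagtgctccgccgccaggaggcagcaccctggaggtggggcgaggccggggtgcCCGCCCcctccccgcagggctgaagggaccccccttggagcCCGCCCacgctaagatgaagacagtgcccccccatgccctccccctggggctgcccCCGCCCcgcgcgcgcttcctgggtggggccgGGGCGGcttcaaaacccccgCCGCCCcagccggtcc
Tgfb2 (chr1:186705990-186706239, strand -): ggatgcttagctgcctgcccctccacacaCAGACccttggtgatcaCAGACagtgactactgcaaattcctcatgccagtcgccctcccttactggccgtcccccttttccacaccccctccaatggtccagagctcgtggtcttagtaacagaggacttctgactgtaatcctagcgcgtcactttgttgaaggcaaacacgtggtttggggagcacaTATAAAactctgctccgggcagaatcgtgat
Inhba (chr13:16011601-16011850, strand +): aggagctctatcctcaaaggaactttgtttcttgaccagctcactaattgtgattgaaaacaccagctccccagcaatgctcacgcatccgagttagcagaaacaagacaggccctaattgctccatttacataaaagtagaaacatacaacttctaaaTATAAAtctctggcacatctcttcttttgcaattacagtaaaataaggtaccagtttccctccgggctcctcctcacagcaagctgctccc
Tgfbi (chr13:56609336-56609585, strand +): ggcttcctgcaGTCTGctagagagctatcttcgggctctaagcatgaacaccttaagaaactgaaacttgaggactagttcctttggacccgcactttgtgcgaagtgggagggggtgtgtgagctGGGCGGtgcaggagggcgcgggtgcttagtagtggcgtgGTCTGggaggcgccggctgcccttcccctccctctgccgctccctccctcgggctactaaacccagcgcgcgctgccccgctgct
The motifs were the SMAD box CAGAC, the SMAD palindrome GTCTAGAC, the AP-1 site TGANTCA, the steroid receptor half-site TGTTCT, the TATA box TATAAA and the SP1 site GGGCGG, and no hits overlapped in the printed runs. The promoters of Tgfb2 and Tgfbi each held 2 SMAD boxes, a motif found in 42.2% of 32841 promoter runs of this length, while those of Tgfb1 and Inhba held none. Tgfb1 held 5 SP1 sites and Tgfbi held 1, against 32.7% of all runs with at least 1. TATAAA began 31 bases before the start in Tgfb2 and 91 bases before it in Inhba, and 12.4% of all runs hold it. GTCTAGAC (0.167% of all runs), TGANTCA (6.75%) and TGTTCT (16.1%) were in none of the printed runs. The GC content was 75.2% for Tgfb1, 62.4% for Tgfbi, 53.6% for Tgfb2 and 43.2% for Inhba, with a median of 52.4% over all runs. These matches describe the letters of the window and no binding was measured.

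Several values of the whole series bear on the comparisons. The difference between the 3′ and the 5′ control probe sets of Actb, which rises as RNA is broken, averaged -0.01 ± 0.09 (SD, n = 2) with MPA and 0.53 ± 0.09 (SD, n = 2) at 48 h of MFP, with 0.16, 0.35 and 0.43 at 6 h, 12 h and 24 h. Medians of liver markers were 3.78 and 4.10 in the MFP 24 h arrays and at most 0.97 in any other array. Skeletal muscle markers stood at 4.06 in MFP 48 h replicate 1, with 1.65 as the highest value elsewhere, and exocrine pancreas markers lay between 5.26 and 7.45 in both MFP 6 h arrays, MFP 24 h replicate 2 and both MFP 48 h arrays. Replicates 1 and 2 of MPA differed in stromal markers, at -0.71 and 0.44 for fibroblast and matrix genes and -0.73 and 0.48 for macrophage genes, and by more and the other way round in liver (0.91 and -3.09) and exocrine pancreas markers (0.78 and -1.93).

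The first question was how the family differed between tumours at 48 h of MFP and tumours with MPA. A probe set is said to have risen or fallen where limma's test over all 45037 non-control probe sets gave a Benjamini-Hochberg adjusted p below 0.05, and the ± of a log2 fold change gives the standard error of the fit. Of the 25 probe sets 8 rose and none fell, with rises in Tgfb1, Tgfb2, Inhba, Tgfbr1, Tgfbr3 and Smad7. Over all probe sets tested 9.25% changed, and 4.37% rose. The median log2 fold change was 0.99 over the 25 and -0.02 over all probe sets. Over the 25 it was 0.54 without MPA replicate 1 and 0.60 with quantile normalization. In 22 of the 25 the arrays of the groups did not overlap, as in 51.2% of all probe sets.

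Against the arrays labelled no MPA, 8 of the 25 probe sets rose at 48 h of MFP and none fell, with 9.35% of all probe sets changed and 5.08% risen. Tgfb2, Inhba, Tgfbr1, Tgfbr3 and Smad7 were again among the genes with a risen probe set, Tgfbi joined them, and Tgfb1 did not. The median over the 25 was 0.96, against -0.06 over all probe sets. The comparisons with MPA and with no MPA share the MFP 48 h arrays and the residual variance of the fit over all 12 arrays. Fitted on the no MPA and MFP 48 h arrays alone 11 members were called, 7 of them among the 8. That fit called 2878 of all 45037 probe sets, of which 1875 rose.

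Between 6 h and 48 h of MFP 14 of the 25 probe sets rose and none fell, with 9.08% of all probe sets changed and 4.89% risen. The 14 lay in 7 genes: all 4 probe sets of Tgfbi, all 3 of Tgfbr1, 3 of 4 of Tgfb2, and 1 each of Tgfb1, Inhba, Tgfbr3 and Smad7. The median over the 25 was 1.14, against -0.05 over all probe sets. These arrays had Actb 3′ minus 5′ differences of 0.16 ± 0.05 and 0.53 ± 0.09 (SD, n = 2), whose part in the result was not tested.

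**Figure D1:**
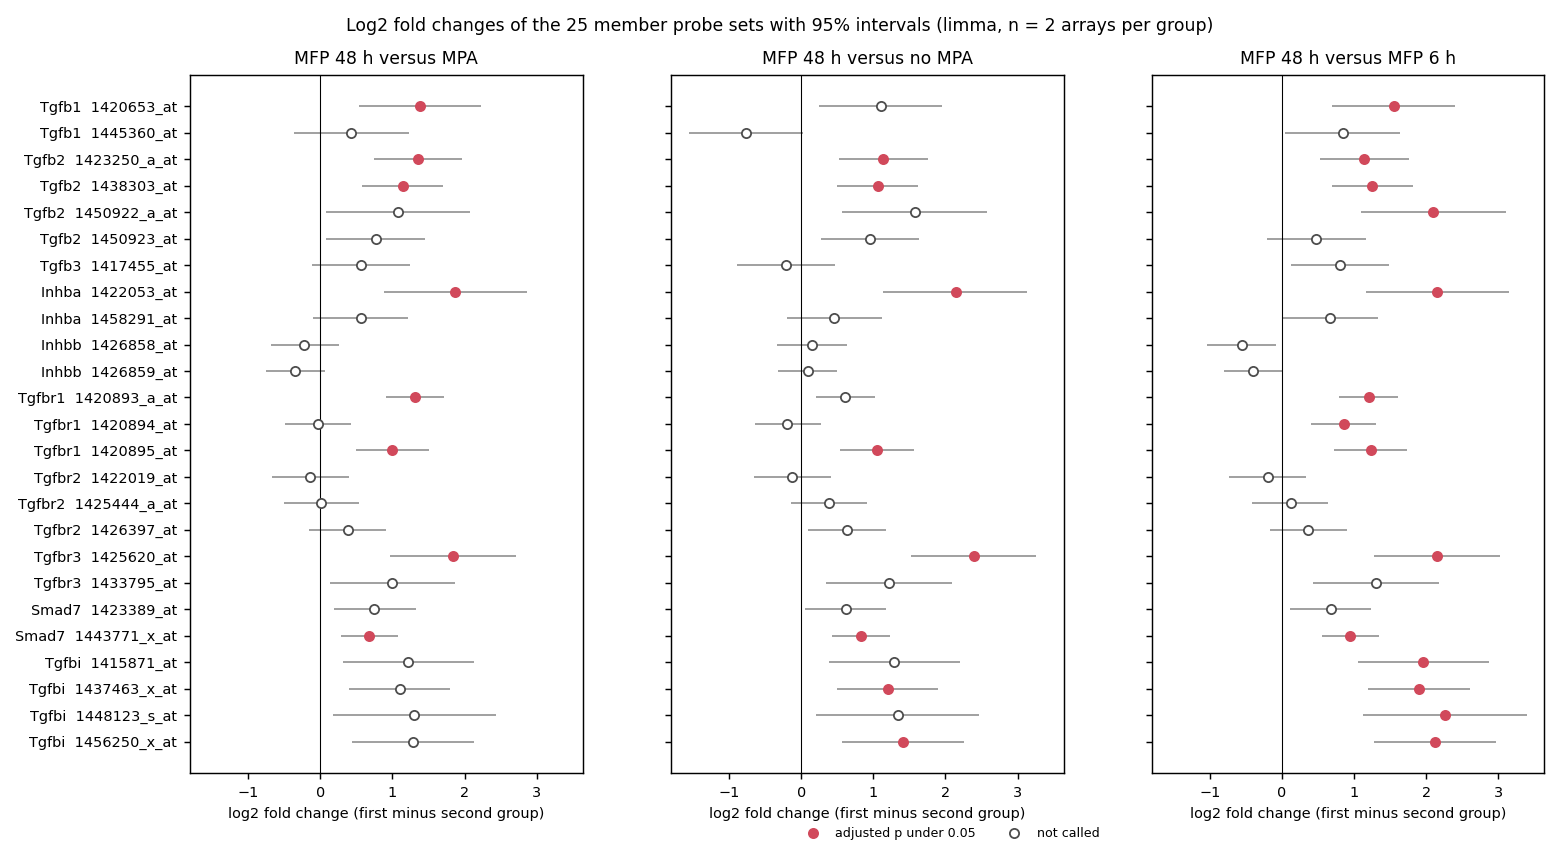
Log2 fold changes of the 25 probe sets (x axis, first minus second group) with 95% intervals from limma for 3 comparisons of tumours at 48 h of MFP, with red points for an adjusted p below 0.05. Rises are seen for 8, 8 and 14 probe sets, the Tgfbr2 and Inhbb probe sets hold none of them, and no probe set fell.

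At 24 h of MFP 2 probe sets had risen and 1 had fallen against MPA, with 6.01% of all probe sets changed. The risen probe sets both belonged to Tgfb2 and the fallen one to Tgfbr1. At 6 h (0.926% of all probe sets changed) and at 12 h (3.13%) no member passed the test. At an unadjusted p below 0.05 there were 3 members at 6 h and 3 at 12 h, against 14% and 16.9% of all probe sets. The comparison of no MPA with MPA had no call among the 25 or among all 45037 probe sets (0%) in limma, with 4 of the 25 and 2963 of all at an unadjusted p below 0.05. Quantile normalization gave 6 calls there over all probe sets and none among the 25.

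Tgfb1, the most widely expressed TGF-beta ligand gene, was read by 2 probe sets that did not follow each other (Pearson's r = 0.34 over the 12 arrays). The log2 ratios of 1420653_at were -0.44 and 0.34 in the MPA arrays, 0.21 and 0.26 in the no MPA arrays, and 0.37 and -0.81 after 6 h, -0.10 and -0.34 after 12 h, 0.45 and 1.10 after 24 h and 1.22 and 1.45 after 48 h of MFP. Both 48 h arrays lay above all others, and MFP 24 h replicate 2 came next. The log2 fold change was 1.38 ± 0.38, adjusted p = 0.0489 at 48 h against MPA, a fold of 2.61, and 1.55 ± 0.38, adjusted p = 0.0313 against 6 h. It stood at 1.10 ± 0.38, adjusted p = 0.108 against no MPA. With array median centring the adjusted p against MPA was 0.0508, so this call lies at the threshold. Against 6 h the log2 fold change of Tgfb1 was 0.96 without MFP 6 h replicate 2 (adjusted p = 0.203).

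The other probe set of Tgfb1, 1445360_at, had its highest values in the no MPA arrays. Its log2 ratios were 0.10 and -0.10 in the MPA arrays, 1.24 and 1.15 in the no MPA arrays, and -0.25 and -0.57 after 6 h, -0.13 and -1.35 after 12 h, -0.54 and -0.14 after 24 h and 0.74 and 0.12 after 48 h of MFP. Both no MPA arrays lay above every other array. The log2 fold change of no MPA against MPA was 1.20 ± 0.36, adjusted p = 0.62, which did not pass the test, and that of MFP 48 h against MPA was 0.43 ± 0.36, adjusted p = 0.534.

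Tgfb2 encodes the ligand that depends most on betaglycan for binding. Probe set 1423250_a_at stood at -0.27 and 0.23 in the MPA arrays, 0.24 and 0.15 in the no MPA arrays, and -0.14 and 0.52 after 6 h, 0.20 and 0.64 after 12 h, 1.33 and 1.08 after 24 h and 1.13 and 1.54 after 48 h of MFP. The 24 h and 48 h arrays lay above all other arrays. It was 1.22 ± 0.28, adjusted p = 0.0305 at 24 h and 1.36 ± 0.28, adjusted p = 0.0163 at 48 h against MPA, a fold of 2.56 at 48 h, and 1.14 ± 0.28, adjusted p = 0.0297 against no MPA. For 1438303_at the log2 ratios were -0.04 and 0.04 in the MPA arrays, 0.12 and 0.04 in the no MPA arrays, and -0.21 and -0.01 after 6 h, 0.43 and 0.11 after 12 h, 0.32 and 1.11 after 24 h and 1.25 and 1.03 after 48 h of MFP. Only MFP 24 h replicate 2 reached the values of the 48 h arrays. This was a difference of 1.14 ± 0.25, adjusted p = 0.0223 at 48 h against MPA and 1.06 ± 0.25, adjusted p = 0.0281 against no MPA.

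The remaining Tgfb2 probe sets passed in fewer comparisons. The ratios of 1450923_at were -0.31 and 0.26 in the MPA arrays, -0.57 and 0.13 in the no MPA arrays, and 0.02 and 0.51 after 6 h, 0.37 and 0.83 after 12 h, 1.33 and 1.11 after 24 h and 0.53 and 0.95 after 48 h of MFP. This probe set was highest at 24 h (1.25 ± 0.31, adjusted p = 0.0417 against MPA) and stood at 0.77 ± 0.31, adjusted p = 0.158 at 48 h. For 1450922_a_at they were -0.92 and 0.56 in the MPA arrays, -0.99 and -0.37 in the no MPA arrays, and -1.52 and -0.88 after 6 h, -0.89 and -0.54 after 12 h, 1.0 and 0.19 after 24 h and 0.92 and 0.88 after 48 h of MFP. Its lowest array was MFP 6 h replicate 1 and the MPA arrays differed by 1.48. It rose between 6 h and 48 h (2.10 ± 0.45, adjusted p = 0.0181) and stood at 1.08 ± 0.45, adjusted p = 0.175 at 48 h against MPA. Pearson's r between pairs of the 4 Tgfb2 probe sets was 0.54 to 0.83 over the 12 arrays.

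Tgfb3, the third TGF-beta ligand gene, had no call. The log2 ratios of 1417455_at were 0.30 and -0.38 in the MPA arrays, 0.71 and 0.75 in the no MPA arrays, and -0.75 and 0.17 after 6 h, 0.40 and 0.23 after 12 h, 0.72 and 0.39 after 24 h and 0.54 and 0.50 after 48 h of MFP. Values were lowest in MFP 6 h replicate 1 and highest in no MPA replicate 2. Tgfb3 stood at 0.56 ± 0.31, adjusted p = 0.309 at 48 h against MPA, with a 95% interval of -0.12 to 1.24, and 0.77 ± 0.31, adjusted p = 0.725 for no MPA against MPA.

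Inhba encodes the subunit shared by activin A and inhibin A. Probe set 1422053_at stood at -0.81 and 0.51 in the MPA arrays, -0.68 and -0.14 in the no MPA arrays, and -0.51 and -0.34 after 6 h, -0.07 and -0.19 after 12 h, 1.12 and 0.05 after 24 h and 1.39 and 2.06 after 48 h of MFP. MFP 24 h replicate 1 came next below the 48 h arrays, while the MPA arrays differed by 1.32. The log2 fold change at 48 h was 1.87 ± 0.45, adjusted p = 0.0291 against MPA, 2.14 ± 0.45, adjusted p = 0.0164 against no MPA, a fold of 4.4, and 2.15 ± 0.45, adjusted p = 0.0157 against 6 h. Against MPA it was 1.21 for Inhba 1422053_at without MPA replicate 1 (adjusted p = 0.183) and 2.53 without MPA replicate 2 (adjusted p = 0.00971). The other probe set, 1458291_at, was highest in MFP 48 h replicate 2 at 0.84 and stood at 0.56 ± 0.30, adjusted p = 0.293 at 48 h against MPA, with a 95% interval of -0.10 to 1.21.

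Inhbb, which encodes the subunit of activin B, had another course. The log2 ratios of 1426858_at were -0.09 and 0.09 in the MPA arrays, -0.09 and -0.65 in the no MPA arrays, and 0.22 and 0.47 after 6 h, 0.62 and 0.73 after 12 h, 0.11 and -0.01 after 24 h and -0.30 and -0.13 after 48 h of MFP. Its 12 h arrays were the highest and no MPA replicate 2 the lowest, and 1426859_at followed it with r = 0.92 over the 12 arrays. Neither passed the test in any comparison. At 12 h the log2 fold change was 0.68 ± 0.22, adjusted p = 0.131 for 1426858_at and 0.46 ± 0.18, adjusted p = 0.232 for 1426859_at against MPA, and from 6 h to 48 h it was -0.56 ± 0.22, adjusted p = 0.144 and -0.40 ± 0.18, adjusted p = 0.225.

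**Figure D2:**
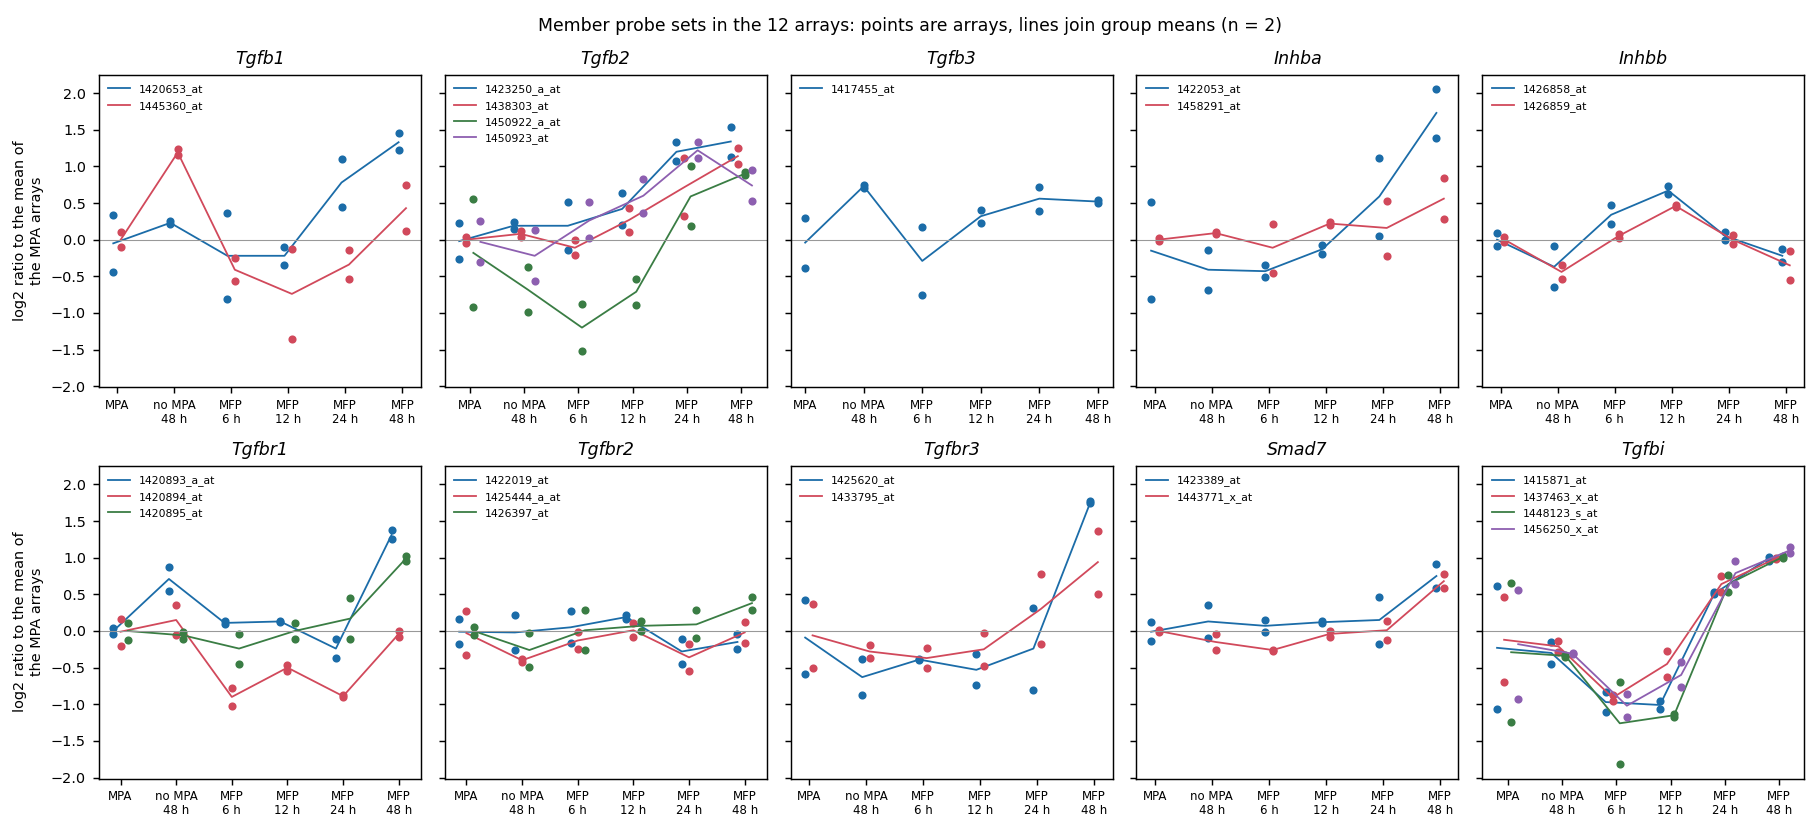
Log2 ratio relative to the MPA mean (y axis) of the 25 probe sets in the 6 groups (x axis), 1 panel a gene and 1 colour a probe set; points are arrays and lines join the means of 2 arrays. Tgfb2, Inhba, Tgfbr3 and Tgfbi are highest at 24 h or 48 h of MFP, Inhbb is highest at 12 h, and the Tgfbr2 probe sets stay between -0.55 and 0.46.

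Tgfbr1 encodes the type I receptor. Probe set 1420893_a_at stood at 0.04 and -0.04 in the MPA arrays, 0.88 and 0.54 in the no MPA arrays, and 0.10 and 0.13 after 6 h, 0.13 and 0.12 after 12 h, -0.37 and -0.11 after 24 h and 1.38 and 1.25 after 48 h of MFP. Highest were the 48 h arrays, followed by the no MPA arrays. Its log2 fold change was 1.31 ± 0.18, adjusted p = 0.00461 at 48 h against MPA, a fold of 2.49 with the smallest adjusted p of the 25 in that comparison, 1.20 ± 0.18, adjusted p = 0.00491 against 6 h and 0.61 ± 0.18, adjusted p = 0.0673 against no MPA. The ratios of 1420895_at were -0.12 and 0.11 in the MPA arrays, -0.11 and -0.02 in the no MPA arrays, and -0.45 and -0.04 after 6 h, 0.11 and -0.11 after 12 h, 0.45 and -0.11 after 24 h and 0.96 and 1.02 after 48 h of MFP. Here the 48 h arrays stood alone above the rest. It rose at 48 h against MPA (0.99 ± 0.23, adjusted p = 0.0252) and against no MPA (1.05 ± 0.23, adjusted p = 0.0191).

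The third Tgfbr1 probe set, 1420894_at, was lower under MFP until 24 h. Its log2 ratios were -0.20 and 0.17 in the MPA arrays, 0.35 and -0.05 in the no MPA arrays, and -0.78 and -1.03 after 6 h, -0.47 and -0.54 after 12 h, -0.88 and -0.90 after 24 h and 0.00 and -0.08 after 48 h of MFP. The arrays at 6 h to 24 h lay below all MPA and no MPA arrays, and the 48 h arrays were back among them. It fell at 24 h against MPA (-0.88 ± 0.21, adjusted p = 0.0342), stood at -0.03 ± 0.21, adjusted p = 0.954 at 48 h, and rose between 6 h and 48 h (0.86 ± 0.21, adjusted p = 0.0278). Pearson's r among the 3 probe sets was 0.28 to 0.63, and which transcript forms they read was not analysed here.

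Tgfbr2, the gene of the type II receptor, had no call in its 3 probe sets. The log2 ratios of 1426397_at were -0.06 and 0.06 in the MPA arrays, -0.03 and -0.49 in the no MPA arrays, and -0.26 and 0.29 after 6 h, 0.13 and 0.00 after 12 h, -0.09 and 0.28 after 24 h and 0.46 and 0.29 after 48 h of MFP. MFP 48 h replicate 1 was the highest array, and replicate 2 lay level with MFP 6 h replicate 2. The log2 fold changes at 48 h against MPA were 0.38 ± 0.24, adjusted p = 0.396 for this probe set, 0.01 ± 0.24, adjusted p = 0.984 for 1425444_a_at and -0.14 ± 0.24, adjusted p = 0.799 for 1422019_at. Their 95% intervals, -0.16 to 0.91, -0.51 to 0.54 and -0.67 to 0.40, hold no rise above 0.91.

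Tgfbr3, the betaglycan gene, had the largest log2 fold change of the 25 against no MPA. The ratios of 1425620_at were -0.59 and 0.42 in the MPA arrays, -0.38 and -0.88 in the no MPA arrays, and -0.38 and -0.40 after 6 h, -0.31 and -0.74 after 12 h, -0.81 and 0.32 after 24 h and 1.77 and 1.74 after 48 h of MFP. The 48 h arrays overlapped no other group, and MPA replicate 2 came next. It rose by 1.84 ± 0.39, adjusted p = 0.0191 against MPA, 2.39 ± 0.39, adjusted p = 0.006 against no MPA, a fold of 5.24, and 2.15 ± 0.39, adjusted p = 0.00912 against 6 h. The second probe set, 1433795_at, stood at 0.51 and 1.36 in the 48 h arrays and -0.18 and 0.78 in the 24 h arrays, and at 1.0 ± 0.39, adjusted p = 0.147 at 48 h against MPA. The pair followed each other with r = 0.85.

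Smad7 encodes an inhibitor of the type I receptor that TGF-beta itself induces. The log2 ratios of 1443771_x_at were 0.02 and -0.02 in the MPA arrays, -0.04 and -0.26 in the no MPA arrays, and -0.27 and -0.26 after 6 h, -0.08 and 0.00 after 12 h, 0.14 and -0.12 after 24 h and 0.78 and 0.58 after 48 h of MFP. The 48 h arrays lay above all others. It rose by 0.68 ± 0.18, adjusted p = 0.0403 against MPA, 0.83 ± 0.18, adjusted p = 0.0183 against no MPA and 0.94 ± 0.18, adjusted p = 0.0104 against 6 h. The suffix x marks a probe set whose probes may also read other transcripts. The other probe set, 1423389_at, stood at 0.58 and 0.92 in the 48 h arrays and at 0.75 ± 0.25, adjusted p = 0.0932 against MPA, short of the threshold, with r = 0.81 between the probe sets.

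Tgfbi encodes a secreted matrix protein, and its 4 probe sets followed each other with r of 0.95 to 0.99. The log2 ratios of 1448123_s_at were -1.24 and 0.66 in the MPA arrays, -0.35 and -0.33 in the no MPA arrays, and -0.70 and -1.82 after 6 h, -1.17 and -1.13 after 12 h, 0.76 and 0.53 after 24 h and 0.99 and 1.03 after 48 h of MFP. The 6 h and 12 h arrays and MPA replicate 1 were the lowest, and the 24 h arrays, the 48 h arrays and MPA replicate 2 the highest. The log2 fold change between 6 h and 48 h was 2.26 ± 0.51, adjusted p = 0.0218, a fold of 4.8 and the largest of the 25 in that comparison. Against MPA it was 1.30 ± 0.51, adjusted p = 0.148, with 0.35 for Tgfbi without MPA replicate 1 and 2.24 without MPA replicate 2.

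The ratios of Tgfbi probe set 1437463_x_at were -0.70 and 0.47 in the MPA arrays, -0.14 and -0.29 in the no MPA arrays, and -0.87 and -0.95 after 6 h, -0.63 and -0.27 after 12 h, 0.75 and 0.53 after 24 h and 0.99 and 0.98 after 48 h of MFP. Those of 1456250_x_at were -0.93 and 0.56 in the MPA arrays, -0.32 and -0.30 in the no MPA arrays, and -0.86 and -1.18 after 6 h, -0.76 and -0.43 after 12 h, 0.95 and 0.64 after 24 h and 1.14 and 1.06 after 48 h of MFP. Those of 1415871_at were -1.07 and 0.61 in the MPA arrays, -0.15 and -0.45 in the no MPA arrays, and -0.83 and -1.11 after 6 h, -1.06 and -0.96 after 12 h, 0.53 and 0.50 after 24 h and 1.01 and 0.96 after 48 h of MFP. In all 3 the 48 h arrays lay above every other array, and the 24 h arrays and MPA replicate 2 came next. Between 6 h and 48 h the log2 fold changes were 1.90 ± 0.32, adjusted p = 0.00657, 2.12 ± 0.38, adjusted p = 0.00844 and 1.96 ± 0.41, adjusted p = 0.0161. Against no MPA the first of these (1.20 ± 0.32, adjusted p = 0.041) and the second (1.41 ± 0.38, adjusted p = 0.0448) passed the test and 1415871_at (1.29 ± 0.41, adjusted p = 0.0795) did not. Against MPA none of the 4 passed, with adjusted p-values from 0.0563 to 0.148.

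Comparisons with MPA rest on 2 arrays that were unlike each other in several members. They differed by more than 1 on the log2 scale in 7 of the 25 probe sets, against 4.74% of all probe sets. These were the 4 of Tgfbi and 1 each of Tgfb2, Inhba and Tgfbr3. Replicate 1 was the lower in 20 of the 25, a count that was not made over all probe sets. Without MPA replicate 1 only Tgfbr1 1420893_a_at rose at 48 h, and without MPA replicate 2 the count was 11, with all 4 Tgfbi probe sets among them. Over all probe sets both fits gave fewer calls than the 4166 of the full fit, while the members had more calls without MPA replicate 2 than the 8 of the full fit. The members called were 2 without MFP 48 h replicate 1 (Tgfb2 1423250_a_at and Tgfbr1 1420893_a_at) and 1 without MFP 48 h replicate 2 (Tgfbr1 1420893_a_at), with 1694 and 2023 calls over all probe sets. Fitted on the 4 MPA and MFP 48 h arrays alone no member was called, and only 87 of all 45037 probe sets were.

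Comparisons of MFP 48 h with no MPA and with MFP 6 h also rested on both arrays of a group. Against no MPA 1 or 2 probe sets were called when any array was left out, 1 without either no MPA array and 2 without either MFP 48 h array. Over all probe sets the calls went from 4212 to between 1180 and 2575. Tgfbr3 1425620_at was called each time. Against 6 h the counts were 5 and 4 without MFP 6 h replicate 1 and 2, and 6 without either MFP 48 h array, with Tgfbr1 1420893_a_at and Tgfbi 1437463_x_at called each time, while the calls over all probe sets went from 4088 to between 1310 and 2196. The directions of all 30 calls at 48 h held in these fits. None of the 3 calls at 24 h held in every fit with 1 array left out. Each of those fits also gave fewer calls over all probe sets than the full fit. Without 1 array the log2 fold change at 24 h was 0.98 to 1.47 for Tgfb2 1423250_a_at and 0.96 to 1.53 for Tgfb2 1450923_at. For Tgfbr1 1420894_at it was -1.06 to -0.69.

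Other genes of the pathway were counted from lists drawn up from textbook knowledge. Latent TGF-beta is held in the matrix by LTBP proteins and released by integrins and thrombospondin, and of 20 probe sets of 9 such genes 8 rose and 2 fell at 48 h of MFP against MPA, with a list median of 0.21 against -0.02 over all probe sets, of which 4.37% rose and 9.25% changed. The risen included Itgb6, the beta chain of a TGF-beta-activating integrin (2.09 ± 0.28, adjusted p = 0.00401), Ltbp1 (2.26 ± 0.40, adjusted p = 0.0101) and Ltbp2 (2.65 ± 0.51, adjusted p = 0.0132). Ltbp3 fell in both of its called probe sets (1456189_x_at -1.42 ± 0.28, adjusted p = 0.015; 1437833_at -1.95 ± 0.53, adjusted p = 0.0464). Itgb6 had log2 ratios of -0.21 and 0.19 in the MPA arrays, 0.42 and 0.15 in the no MPA arrays, and 0.00 and 0.34 after 6 h, 0.81 and 1.59 after 12 h, 1.29 and 1.14 after 24 h and 1.86 and 2.28 after 48 h of MFP. It was above all MPA arrays from 12 h on. Itgb6 was called without any of the 4 arrays in turn, Ltbp1 in 3 of the 4 fits, Ltbp2 in 1, and the Ltbp3 probe sets in 2 and 1, and without MPA replicate 1 the list had 2 rises and 2 falls.

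Of 25 probe sets of 14 genes on the activin side 3 rose and none fell at 48 h, with a list median of -0.11, where 9.25% of all probe sets changed and 4.37% rose. Fstl3, which encodes a secreted protein that binds activin, rose (1.06 ± 0.17, adjusted p = 0.00665), with log2 ratios of -0.01 and 0.01 in the MPA arrays, -0.14 and -0.02 in the no MPA arrays, and -0.18 and -0.23 after 6 h, -0.14 and -0.10 after 12 h, -0.02 and 0.15 after 24 h and 0.95 and 1.17 after 48 h of MFP. The 48 h arrays stood apart from the other 10. Fstl1 rose in 2 probe sets too (1448259_at 1.64 ± 0.40, adjusted p = 0.0305; 1416221_at 1.30 ± 0.36, adjusted p = 0.0491). The call of Fstl3 held without any of the 4 arrays in turn, and those of Fstl1 held only without MPA replicate 2. Of the co-receptor and other type I receptor genes Eng, the endoglin gene, rose (1.06 ± 0.28, adjusted p = 0.0398), as 1 of 5 probe sets, and this call held only without MPA replicate 2.

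SMAD genes and their regulators had 3 rises and no fall among 32 probe sets of 15 genes, with a list median of 0.03. That count is to be read against 9.25% of all probe sets changed and 4.37% risen. Pmepa1, a TGF-beta-induced inhibitor of SMAD signalling, rose in both called probe sets (1422705_at 1.37 ± 0.23, adjusted p = 0.00846; 1422706_at 1.03 ± 0.20, adjusted p = 0.0131), and Skil, a SMAD corepressor gene, rose in 1 (0.91 ± 0.23, adjusted p = 0.0368). The Pmepa1 calls held in 3 and 2 of the 4 fits with an array left out and that of Skil in none, and without MPA replicate 1 the list had no call. No probe set of a gene that encodes a SMAD protein was called in this list. BMP ligands and receptors had 1 rise and 1 fall among 27 probe sets, with a list median of 0.04. Bmp2 rose (1.29 ± 0.20, adjusted p = 0.00645) in each of the 4 fits, and Bmpr1a, a type I BMP receptor gene, fell (-1.12 ± 0.23, adjusted p = 0.0175) and kept its call in 1 of them.

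Textbook targets of TGF-beta had 13 rises and no fall among 29 probe sets of 16 genes at 48 h against MPA. Their list median was 1.15, and there were 15 rises against no MPA. Of all probe sets 4.37% rose in the first comparison and 5.08% in the second. The list sets no direction of response to TGF-beta for its genes, and it holds matrix genes that also mark fibroblasts. Ccn2, which encodes a matricellular protein of fibrotic tissue, rose (1.93 ± 0.32, adjusted p = 0.00808), with log2 ratios of -0.70 and 0.47 in the MPA arrays, -1.04 and -0.90 in the no MPA arrays, and -0.06 and -0.06 after 6 h, 0.45 and 0.54 after 12 h, 1.74 and 1.27 after 24 h and 1.76 and 1.86 after 48 h of MFP. Its 24 h and 48 h arrays lay above all others and the no MPA arrays were the lowest. Id2, a gene of a helix-loop-helix inhibitor, rose as well (1.64 ± 0.30, adjusted p = 0.011). The list had 1 rise without MPA replicate 1, 14 without MPA replicate 2, and 3 or 2 when MFP 48 h replicate 1 or 2 was left out, and Ccn2 was called in all 4 of these fits.

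**Figure D3:**
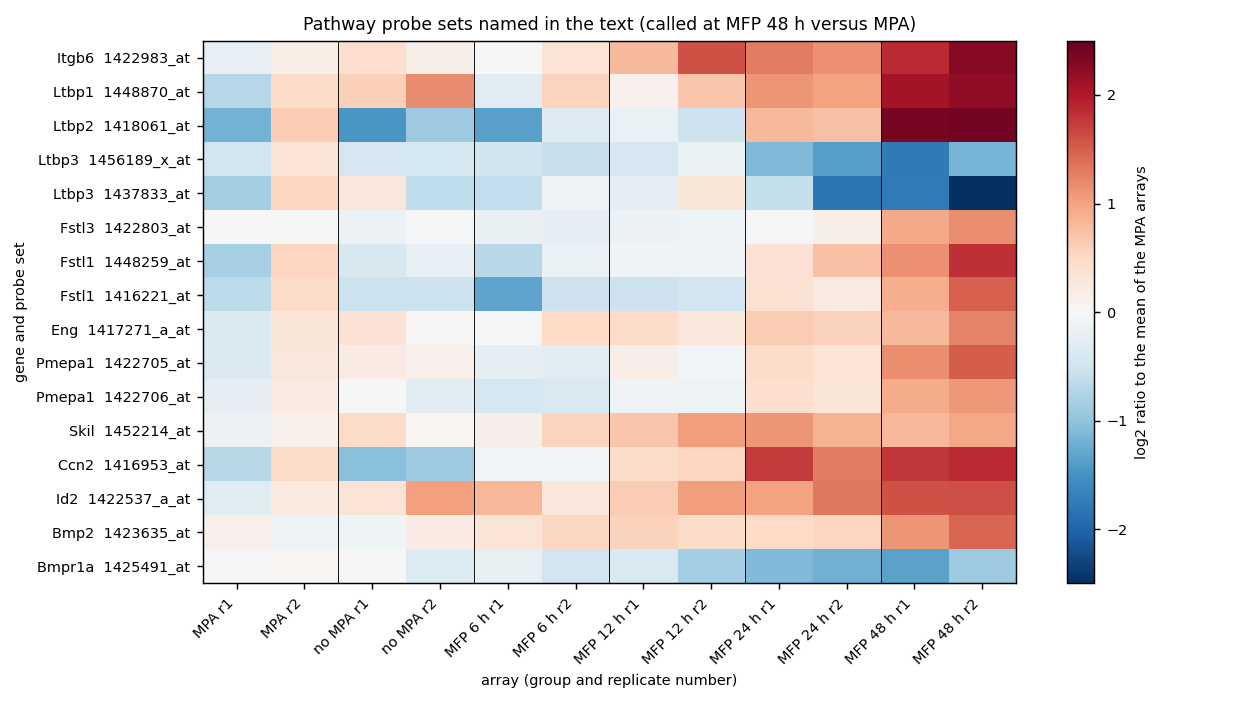
Log2 ratio relative to the MPA mean (colour scale, clipped at 2.5 in either direction) of the 16 pathway probe sets named in the text (rows) in the 12 arrays (columns). Ltbp2, Itgb6, Ltbp1 and Ccn2 are highest in the MFP 48 h arrays, and Ltbp3 1456189_x_at and Bmpr1a are lowest at 24 h and 48 h.

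Markers of macrophages and fibroblasts also rose at 48 h of MFP, as did those of exocrine pancreas. Of 15 probe sets of 10 macrophage genes 13 rose and none fell against MPA. Among 23 probe sets of 12 fibroblast and matrix genes 15 rose and none fell. Over all probe sets 4.37% rose and 9.25% changed in this comparison. Exocrine pancreas markers rose in 8 of 10 probe sets, basal epithelial markers in 1 of 17 and skeletal muscle markers in 1 of 14, with no falls. Liver markers (17 probe sets) and T and NK cell markers (10 probe sets) had no call. The macrophage medians were -0.73 and 0.48 with MPA, -0.69 and -0.53 in the no MPA arrays, between -0.72 and -0.04 at 6 h and 12 h, 0.38 and 0.93 after 24 h, and 1.94 and 2.06 after 48 h. Those of the fibroblast and matrix list were -0.71 and 0.44 with MPA, -0.51 and -0.47 in the no MPA arrays, between -0.56 and -0.26 at 6 h and 12 h, 0.44 and 0.41 after 24 h, and 1.21 and 1.43 after 48 h. Luminal epithelial markers had 6 falls and 1 rise among 16 probe sets, with medians of -0.99 and -0.30 at 48 h, and endothelial markers had 2 rises and 1 fall among 9. The part of these cells in the changes of the TGF-beta genes was not tested, and in bulk tumour RNA fewer cells of a type and less RNA per cell cannot be told apart. Without MPA replicate 1 the macrophage rises were 6 of 15 and the fibroblast rises 4 of 23, luminal markers had 1 fall and no rise, and endothelial markers had no call. Without MFP 48 h replicate 1 luminal markers had 1 fall too.

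**Figure D4:**
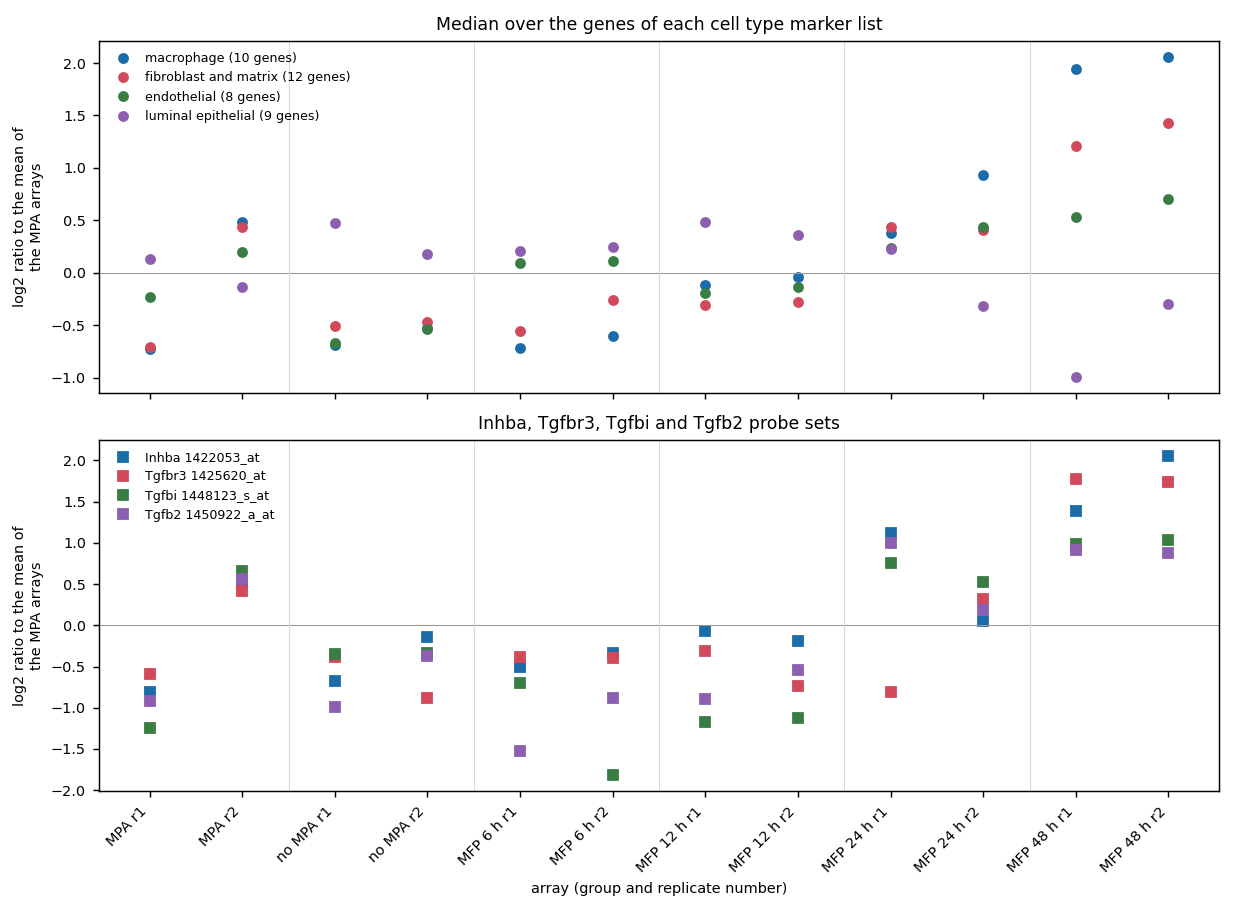
Median log2 ratio over the genes of 4 marker lists (top) and log2 ratios of Inhba, Tgfbr3, Tgfbi and Tgfb2 probe sets (bottom), in each of the 12 arrays (x axis). Macrophage medians reach 1.94 and 2.06 and Inhba reaches 1.39 and 2.06 in the MFP 48 h arrays, and the macrophage and fibroblast medians and all 4 probe sets are lower in MPA replicate 1 than in MPA replicate 2.

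Likeness of pattern was read as Pearson's r over the 12 arrays between the most variable probe set of each member and the probe sets of other genes, as a description that includes the differences between groups. Inhba was most like Vcan, a matrix proteoglycan gene, P4ha3, a collagen prolyl hydroxylase gene, and Map1a (each r = 0.96). Tgfb2 was most like Epha3, Col12a1, a collagen gene, and Pcsk5 (each r = 0.95). Tgfbr3 was most like Maf, a transcription factor gene (r = 0.98), Clec4n, a myeloid lectin gene (r = 0.96), and Azin1 (r = 0.95). Tgfbi was most like Mrpl52 (r = 0.97), Ms4a6c (r = 0.96) and Pla2g7 (r = 0.95). Smad7 was most like Tnfsf4 (r = 0.96), Tnfrsf11b, the osteoprotegerin gene, and Loxl1, a collagen cross-linking enzyme gene (each r = 0.94).

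Among the remaining members Inhbb was most like Mgat3 (r = 0.96), Khnyn (r = 0.95) and Sh3bgrl2 (r = 0.94), and Tgfbr2 was most like Rgcc (r = 0.93), Rgs3 (r = 0.92) and Stom (r = 0.91). Tgfb3 was most like Nkd2, an inhibitor of WNT signalling (r = 0.94), Mcoln3 (r = 0.92) and Dkk3 (r = 0.87). The most variable Tgfb1 probe set, 1445360_at, was most like Golga7b (r = 0.95), Cnot8 and Ndufa12 (each r = 0.89), and Tgfbr1 1420893_a_at was most like Il18rap (r = 0.91), Ckmt2 (r = 0.90) and Rsph6a (r = 0.89).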

How the data were processed

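Expression was measured on 12 arrays in 6 groups of 2. The authors deposited log2 values for 45101 probe sets, made with GCRMA, per the submitters' processing notes; no source used here gives its version. The linear values of the MPA arrays averaged 1 within 0.0001 for 45099 probe sets, so the deposited log2 values are ratios to the MPA mean, and signal over background is unknown. Each labelling took 200 ng of RNA, per the labels. Probe sets were named by the platform annotation: 34945 have 1 symbol, 932 several, 9160 none, and 64 are controls.

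Groups came from the source names. limma 3.58.1 (R 4.3.3) was fitted to the 45037 non-control probe sets with 1 mean per group (6 residual and 4.38 prior degrees of freedom), and 7 comparisons were tested with eBayes, two-sided, with Benjamini-Hochberg adjustment at 0.05. The scripts were tested on simulated data. Alternatives were other normalizations, variance models, array sets and 1 value per gene. The lists and members were chosen with earlier results of these data known. Every member probe set is described, those called in any comparison (15 of 25) in every array; up to 3 risen and 3 fallen probe sets with the smallest p at 48 h are named per pathway list. Lrrc32, Gdf15, Mstn, Fbn1, Pnlip and Amy2b of the lists are not analysed here.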

Additional observations from a re-analysis of the deposited data

Results flagged for a closer look

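The effect of MFP against MPA differed between 6 h and 48 h for 14 of the 25 probe sets. This was tested as MFP 48 h minus MFP 6 h in limma (adjusted p below 0.05 for each). In every one the effect was higher at 48 h. Over all probe sets tested 9.08% changed in this comparison and 4.89% rose. On the log2 scale the difference was 2.26, 2.12, 1.96 and 1.90 for the Tgfbi probe sets 1448123_s_at, 1456250_x_at, 1415871_at and 1437463_x_at. For Tgfb2 it was 2.10 (1450922_a_at), 1.25 (1438303_at) and 1.14 (1423250_a_at), for Inhba 1422053_at 2.15 and for Tgfbr3 1425620_at 2.15. Tgfbr1 differed by 1.23 (1420895_at), 1.20 (1420893_a_at) and 0.86 (1420894_at), Tgfb1 1420653_at by 1.55, and Smad7 1443771_x_at by 0.94. With quantile normalization none of the 14 was called, and 129 of all 45037 probe sets were. The Actb 3′ minus 5′ difference averaged 0.16 at 6 h and 0.53 at 48 h, and its part in these values was not tested. No group has the 4 arrays needed to look for a single array apart from the rest.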

How the results depend on the processing

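Over the 7 comparisons the 25 probe sets had 33 calls. All 33 were kept with probe sets of 1 symbol only and with robust eBayes, 32 with array median centring, 28 with array weights (equal within each pair of arrays), and 18 of 33 when only the arrays compared were fitted. Quantile normalization kept 0 of 33: the count of called members was 0 at 24 h and 0 at 48 h against MPA, 0 against no MPA and 0 against 6 h. Before it the SD over probe sets was 0.26 and 0.27 in the MPA arrays and 0.69 and 0.65 in the MFP 48 h arrays, and it gives all arrays 1 distribution. Over all probe sets it gave 18 calls against 4166 at 48 h versus MPA, 175 against 4212 versus no MPA, 129 against 4088 versus 6 h, and 133, 229 and 45 at 6 h, 12 h and 24 h against 417, 1409 and 2708. At 24 h array weights gave 0 called members and the fit on the arrays compared gave 0; the latter also gave 0 at 48 h against MPA, and over all probe sets 5, 0, 194 and 87 calls at 6 h, 12 h, 24 h and 48 h. Array weights gave 1540 at 24 h. Leaving out the MFP 24 h arrays, chosen after seeing the data, kept 29 of 30.

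With 1 array left out, called members ranged from 0 to 2 at 6 h, 0 to 1 at 12 h, 0 to 6 at 24 h and 1 to 11 at 48 h against MPA, from 1 to 2 at 48 h against no MPA, from 4 to 6 at 48 h against 6 h, and 0 to 0 for no MPA against MPA. The lone array left in a group is assumed to vary like the other groups. Tgfbi values that passed in no full fit against MPA changed sign: without MPA replicate 2, 1415871_at stood at 0.10 at 6 h and 0.06 at 12 h (-1.58 and -1.62 without replicate 1); without MPA replicate 1, at 24 h, it stood at -0.09 and 1448123_s_at at -0.01 (1.58 and 1.88 without replicate 2). Set against the full fit, signs changed in 90 of 1900 combinations of probe set, comparison and alternative. In none of them was the value called in the full fit or the alternative. This count does not set alternatives against each other, so it misses opposite signs between the fits without MPA replicate 1 and without MPA replicate 2.

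With the mean of a gene's probe sets over 18193 genes, Inhba (1.22 ± 0.33, adjusted p = 0.0408), Tgfb2 (1.09 ± 0.24), Tgfbr1 (0.76 ± 0.14), Tgfbr3 (1.42 ± 0.37) and Smad7 (0.72 ± 0.18) were called at 48 h against MPA, and Tgfb1 (0.91 ± 0.30, adjusted p = 0.0847) was not. Over all 18193 genes the mean gave 2197 calls in this comparison. With the most variable probe set of each gene, Inhba, Smad7, Tgfbr1 and Tgfbr3 were called, with 2272 calls over all genes. No paired analysis was possible because the labels give no replicate numbers, and those used here follow accession order. Signal over background is unknown, and 2 arrays a group limit every value.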
